A study of Mus musculus with 8 samples.

Results

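The genes described here encode chaperones and cochaperones of the cytosolic heat shock response and its transcription factor, taken by symbol from the deposited table. They are Hspa1a, Hspa1b, Hspa8, Dnajb1, Hsph1, Hsp90aa1, Hsp90ab1, Hspb1, Bag3 and Hsf1, and all 10 were found among the 18877 genes listed. Heat shock proteins hold unfolded proteins in solution and help them refold, and cells make more of them when proteins are damaged by heat, oxidation or mechanical stress. HSP70 proteins bind short hydrophobic stretches in a cycle driven by ATP, J-domain partners start the cycle, and nucleotide exchange factors end it, while HSP90 completes the folding of kinases and receptors. In muscle the system also protects contractile proteins under load, and BAG3 with the small heat shock proteins takes part in clearing damaged ones.

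The libraries hold RNA of ASCs, muscle stem cells that were quiescent and became activated once the muscle was injured. There were 4 libraries of wild-type ASCs and 4 of mfn2-/- ASCs, in which floxed Mfn2, the gene of the mitochondrial fusion protein mitofusin 2, had been deleted through Pax7-CreERT2, a recombinase made by Pax7-expressing cells and switched on by tamoxifen. Both groups had received tamoxifen (75 mg/kg) for 5 days, carried the mitochondrial fluorescent protein Dendra2 switched on by the same recombinase, and were injured with barium chloride. Cells were sorted 2 days after injury as living, Dendra2-positive and CD34-negative cells. The labels used here give neither age nor sex, and do not say that each library came from a separate animal, so p-values measure only the spread between these libraries, which may be technical.

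Several measured properties of the libraries belong beside the chaperone values. Depth was 1880464 to 7508215 reads. Reads of 4 Y-linked genes were found in wild-type replicates 3 and 4 and in mfn2-/- replicates 1 and 2 (807 to 2336 in sum for Ddx3y, Eif2s3y, Kdm5d, Uty), while the other 4 libraries held 0. Mfn2 itself measured 229 ± 19.98 normalized reads (SD, n = 4) in wild-type and 126 ± 31.4 in mfn2-/- ASCs, with no overlap (log2 change -0.88, limma adjusted p 0.0848, exact permutation p 0.0286), and a count per gene does not separate transcripts that lack the deleted part. The summed level of 14 fibroadipogenic markers was 196715 to 254844 normalized reads in wild-type and 6003 to 10187 in mfn2-/- libraries, and 12 of the 14 were called lower. The sum of 9 tenocyte markers was 38669 to 60889 against 306 to 415, with all 9 called lower, and none of these markers was at 0 in every library. The sum of 10 muscle stem cell markers was 9230 to 14480 against 27511 to 41704, with 4 called higher. Within this list Pax7 gave 630 to 730 in wild-type and 582 to 803 in mfn2-/- libraries, and Myod1 104 to 225 and 683 to 918. The sum of 14 myofiber markers was 2222 to 4391 against 4713 to 5899, with 3 called higher. In mfn2-/- replicate 4, 9646 genes had a read, against 12613 to 15270 in the other libraries. The 7SK RNA Rn7sk, a small nuclear RNA, stood at 57454 and 250644 normalized reads in mfn2-/- replicates 3 and 4, and at 15097 to 33953 in the other 6 libraries. In wild-type replicates 1 to 4 it gave 23304, 23789, 33953 and 20640. Replicates 3 and 4 had the lower summed chaperone share in both genotypes, and in wild-type the lowest share and the lowest Rn7sk value were both in replicate 4. The wild-type libraries held many transcripts of connective tissue cells beside their label, and the part of these differences in the chaperone values was not tested. In bulk samples fewer cells of a type and less RNA per cell cannot be told apart.

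Genes of the heat shock response are read out through heat shock elements, inverted repeats of the letters GAA and TTC to which heat shock factor 1 binds. The 120 bases before the start site are shown for the 2 chaperone genes that passed the test between genotypes, Hsph1 and Hspb1, and for the HSP70 pair Hspa1a and Hspa1b, whose start regions are almost the same. They are RefSeq sequences of GRCm38.p6, written from 5′ to 3′ on the strand of the gene. Capitals mark GAANNTTC or TTCNNGAA, each of which reads the same on both strands and which may overlap each other.
Hspa1a (chr17:34972157-34972276, minus strand): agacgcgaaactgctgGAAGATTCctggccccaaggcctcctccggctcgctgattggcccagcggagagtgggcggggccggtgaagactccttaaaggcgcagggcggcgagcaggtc
Hspa1b (chr17:34959239-34959358, minus strand): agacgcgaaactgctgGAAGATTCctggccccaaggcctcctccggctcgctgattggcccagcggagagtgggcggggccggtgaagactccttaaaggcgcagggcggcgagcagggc
Hspb1 (chr5:135887799-135887918, plus strand): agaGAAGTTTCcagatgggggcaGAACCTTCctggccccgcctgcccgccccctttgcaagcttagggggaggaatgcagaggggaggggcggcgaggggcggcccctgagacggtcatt
Hsph1 (chr5:149636337-149636456, minus strand, first of 2 listed start sites): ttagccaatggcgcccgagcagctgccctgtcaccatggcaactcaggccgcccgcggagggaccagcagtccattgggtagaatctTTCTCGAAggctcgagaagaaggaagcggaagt
The match began 104 bases before the start in both Hspa1a and Hspa1b, whose printed stretches were identical at 119 of 120 bases. Hspb1 had a match at 117 and another at 97 bases before its start, and Hsph1 had 1 at 33 bases before and 2 overlapping ones after it. Bag3 had 1 match, after its start, and Dnajb1 had 0 in the windows of both of its start sites. Of all 32851 RefSeq windows of 300 bases (250 before and 50 after a start site), 15.1% held such a match. A longer repeat of 3 units, GAANNTTCNNGAA or TTCNNGAANNTTC, occurred in 0.603% of windows and, among the chaperone genes, in Hsph1. Windows were listed for 6 of the 10 genes. A match is a run of letters and not a measured binding site.

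The chaperone genes took many of the reads of these cells. By mean normalized reads over the 8 libraries, not divided by length, 9 of the 10 ranked between 4 (Hspa8) and 45 (Bag3) of 18877 genes. Hsf1, the transcription factor of the response, ranked 6981. Divided by exonic length, the wild-type mean was highest for Hspa8 at 10616 normalized reads per kilobase, followed by Hspa1b, Hsp90ab1, Hspa1a, Hspb1, Hsp90aa1, Dnajb1, Hsph1 and Bag3, the last at 2212. In mfn2-/- ASCs Hspa8 remained first on this scale at 15463, Hspb1 stood at 11663 and Hsph1 at 6783 against 2870 in wild-type. Together the 10 genes took 4.56, 4.84, 3.36 and 3.28% of the normalized reads in wild-type replicates 1 to 4. In mfn2-/- replicates 1 to 4 they took 8.93, 8.87, 5.46 and 4.88%, so that every mfn2-/- library lay above every wild-type library. The lowest mfn2-/- share was close to the highest wild-type one.

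**Figure D1:**
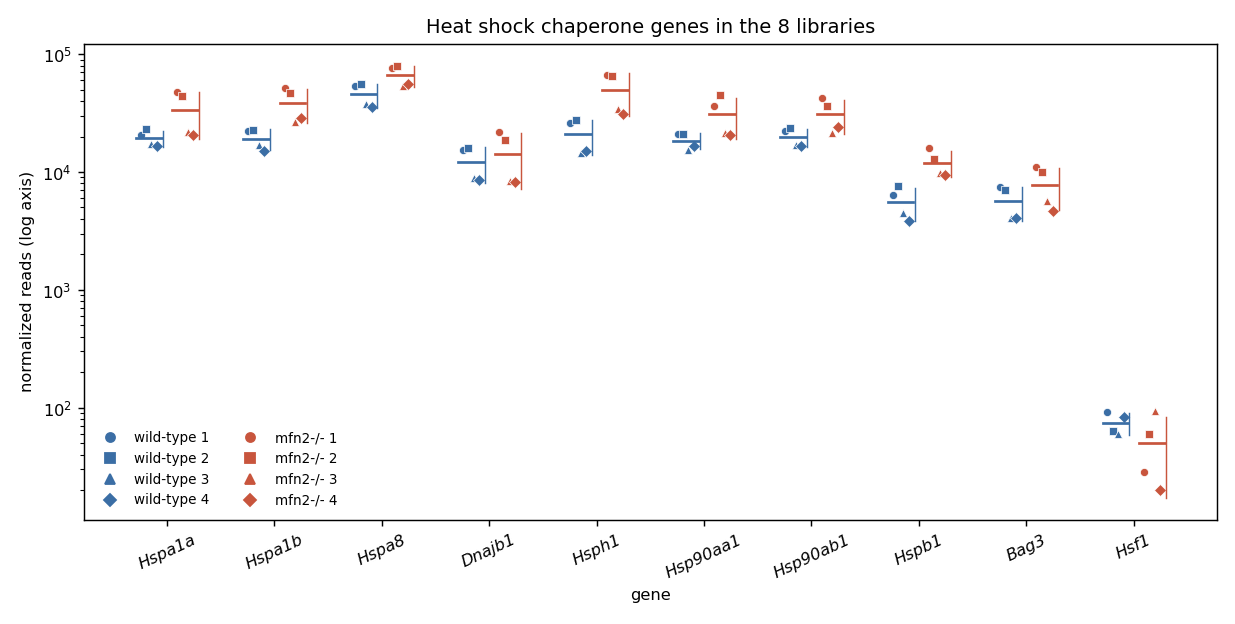
Normalized reads of the 10 chaperone genes (log axis) in the 4 wild-type (blue) and 4 mfn2-/- (red) libraries. Symbols give the replicate number, horizontal bars the mean and thin vertical lines the mean ± SD. In every gene but Hsf1, replicates 1 and 2 lie above replicates 3 and 4 of the same genotype.

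Changes between the genotypes are given as differences of log2(normalized reads + 1), mfn2-/- minus wild-type, from limma with Benjamini-Hochberg adjustment over 11754 genes, and a gene is called at an adjusted p under 0.05. All 10 chaperone genes entered this test. Of them 2 were called, Hsph1 and Hspb1, both higher in mfn2-/- ASCs. Of all genes tested 10.4% were called, 3.99% higher and 6.36% lower, so that the count of 2 in 10 was not far from the background. The log2 change was positive in 9 of the 10. Its median was 0.64 over the 10 genes and -0.16 over all genes tested. Under quantile normalization, which moved the median of all genes by 0.29, the medians were 0.62 and 0.13, and 9 of the 10 genes still lay above that of all genes.

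Hsph1 encodes HSP110, a large relative of HSP70 that acts as its nucleotide exchange factor and as a holder of unfolded proteins. It gave 26070, 27764, 14627 and 14966 normalized reads in wild-type replicates 1 to 4, and 66704, 65222, 34160 and 31043 in mfn2-/- replicates 1 to 4. The groups did not overlap, although the lowest mfn2-/- libraries stood only slightly above the highest wild-type ones. The mean was 20857 ± 7033 in wild-type and 49282 ± 19313 in mfn2-/- ASCs (SD, n = 4 each). Hsph1 changed by 1.22 on the log2 scale (SE 0.35, limma adjusted p 0.0411). A two-sided exact permutation of the libraries gave p 0.0286, the smallest value that 70 arrangements allow. Every gene without overlap between the groups gets this value, so it only restates the lack of overlap. It also treats the libraries as independent, although they differed by replicate pair. The limma call of Hsph1 was lost without the intensity trend (adjusted p 0.134) and with the libraries of each replicate pair averaged (0.285). It was also lost without any 1 of 6 libraries. The limma adjusted p was 0.0593, 0.0506, 0.147 and 0.129 without wild-type replicates 1, 2, 3 and 4, and 0.102 and 0.103 without mfn2-/- replicates 1 and 2.

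Hspb1, the small heat shock protein HSP27 (mouse HSP25) that binds unfolding proteins without ATP and protects actin filaments, was the other gene called. It gave 6361, 7614, 4475 and 3816 normalized reads in wild-type replicates 1 to 4, and 15842, 13018, 9813 and 9426 in mfn2-/- replicates 1 to 4. Every mfn2-/- library exceeded every wild-type library. The mean was 5567 ± 1739 against 12025 ± 3011, the log2 change 1.13 (SE 0.26, limma adjusted p 0.0139). The exact permutation p was 0.0286, the value of every gene without overlap. By limma the adjusted p was 0.0570 without wild-type replicate 3 and 0.0533 without wild-type replicate 4, and the call held when any of the other 6 libraries was left out. The Hspb1 call was also lost by limma without the intensity trend (adjusted p 0.101) and with the libraries of each replicate pair averaged (0.165). Of its 50-base windows 50.1% occurred in another annotated gene, mainly the pseudogene Hsp25-ps1, and the handling of reads that map to several places is not given in the sources used here.

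Hspa1a and Hspa1b encode the stress-inducible HSP70 proteins and lie beside each other on chromosome 17 (34969190 to 34972156 and 34956436 to 34959238 in GRCm38, both on the minus strand). Hspa1b gave 22119, 22847, 16817 and 15022 normalized reads in wild-type replicates 1 to 4, and 51161, 46920, 26519 and 28822 in mfn2-/- replicates 1 to 4. Its groups did not overlap. The log2 change was 0.96 (SE 0.29), the limma adjusted p 0.0534, just outside the threshold, and 0.364 with the libraries of each replicate pair averaged. The exact permutation p was 0.0286, the value of every gene without overlap. Hspa1a gave 20691, 23038, 17279 and 16552 normalized reads in wild-type replicates, against 47664, 43753, 21767 and 20559 in mfn2-/- replicates. Here mfn2-/- replicates 3 and 4 fell inside the wild-type range, and the log2 change of 0.69 (SE 0.32) had a limma adjusted p of 0.193 and an exact permutation p of 0.143. These genes cannot be separated with certainty, since 58.8% of the 50-base windows of Hspa1a occur in Hspa1b and 62.3% of those of Hspa1b in Hspa1a. Hspa1a also overlaps Gm20481 on the opposite strand.

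Hspa8, the constitutive HSP70 of all cells, gave 53354, 56150, 37621 and 35521 normalized reads in wild-type and 76353, 79913, 54135 and 55629 in mfn2-/- replicates 1 to 4. The mfn2-/- replicates 3 and 4 lay within the wild-type range. Its change of 0.55 (SE 0.31) had an adjusted p of 0.300 by limma and an exact permutation p of 0.0857. Of its windows 39.4% were shared with other annotated genes. Dnajb1, the J-domain protein HSP40 that delivers clients to HSP70, had 15485, 15868, 8892 and 8494 normalized reads in wild-type against 21715, 18701, 8318 and 8226 in mfn2-/- replicates 1 to 4. The mfn2-/- libraries held both the highest and the lowest values, so that the means of 12185 ± 4038 and 14240 ± 7000 differed by less than the spread. It changed by 0.15 on the log2 scale (SE 0.35; adjusted p 0.835 by limma; exact permutation p 0.657), and the sign turned without wild-type replicate 4 or mfn2-/- replicate 1 or 2 (-0.01, -0.10 and -0.03).

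The cytosolic HSP90 genes had similar changes. Hsp90aa1, the inducible form, gave 21005, 20884, 15431 and 16492 normalized reads in wild-type and 36113, 45075, 21448 and 20627 in mfn2-/- replicates 1 to 4. Hsp90ab1, the constitutive form, gave 22206, 23430, 16905 and 16721 in wild-type and 42672, 36071, 21358 and 24053 in mfn2-/- replicates 1 to 4. In both genes mfn2-/- replicates 1 and 2 stood clear of the wild-type libraries and at least 1 of replicates 3 and 4 did not. The log2 changes were 0.67 (SE 0.29, limma adjusted p 0.176) and 0.61 (SE 0.28, adjusted p 0.203). For Hsp90aa1 47.5% of windows were shared with other annotated genes, mainly the pseudogene Gm12346, and for Hsp90ab1 3.44%.

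Bag3, the cochaperone that joins HSP70 to small heat shock proteins and to autophagy, gave 7482, 7038, 4106 and 4038 normalized reads in wild-type and 10961, 9907, 5716 and 4660 in mfn2-/- replicates 1 to 4. The groups overlapped. The change was 0.43 (SE 0.31, adjusted p 0.420 by limma). Hsf1, the factor that switches the response on, was weakly expressed, at 91.0, 63.3, 59.6 and 83.3 normalized reads in wild-type and 28.7, 59.3, 93.6 and 20.2 in mfn2-/- replicates 1 to 4. Its log2 change of -0.77 (SE 0.63, limma adjusted p 0.491) was the only negative one among the 10 genes, and its mfn2-/- values spread across and beyond the wild-type range. Between groups, 3 of the 10 genes (Hspa1b, Hsph1 and Hspb1) did not overlap, all with mfn2-/- above wild-type. Among all genes tested 19.5% did not overlap and 7.36% lay above in this sense.

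The levels also differed between libraries of the same genotype. In 9 of the 10 genes, all but Hsf1, replicates 1 and 2 exceeded replicates 3 and 4 both in wild-type and in mfn2-/- ASCs, an order found in 6.14% of all genes tested. For Dnajb1 this step was 0.85 in wild-type and 1.28 in mfn2-/- ASCs on the log2 scale, larger than its genotype change. When the genotypes were compared within the replicate numbers, the median log2 change of the 10 genes was 0.86 in replicates 1 and 2 and 0.41 in replicates 3 and 4, against 0.04 and -0.33 over all genes. The mfn2-/- mean was higher in both number pairs for 8 of the 10 genes, where 26.5% of all genes had that pattern. The exceptions were Dnajb1 (0.36 and -0.07) and Hsf1. Hsph1 changed by 1.29 and 1.14, Hspb1 by 1.05 and 1.22, and Hspa1b by 1.12 and 0.80 in replicates 1 and 2 and in replicates 3 and 4.

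The same libraries can be split by Y-linked reads, which sets replicates 1 and 2 of one genotype beside replicates 3 and 4 of the other. The genotype change differed between these kinds of library. Among libraries with Y-linked reads the median log2 change of the 10 genes was 1.35, and among those without it was -0.00, against -0.16 in each over all genes. By the limma interaction of genotype with Y-linked reads, adjusted over 11754 genes, 9 of the 10 chaperone genes were called, all with the larger change among libraries with Y-linked reads. Each combination of genotype and Y-linked reads is 1 replicate pair, so the p-values of this test measure only the spread within pairs. Over the whole fit 1.47% of genes were called in this test, 1.21% in that direction and the rest in the other. The difference between the changes was largest for Dnajb1 at 2.14 (adjusted p 0.000267), which changed by 1.21 with and by -0.92 without Y-linked reads. It was 1.88 for Hsph1 (2.16 and 0.28, adjusted p 0.000267) and 1.85 for Bag3 (1.36 and -0.49, adjusted p 0.00124).

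For the other genes called in this test the difference was between 1.09 and 1.48. Hspa1a changed by 1.43 with and -0.05 without Y-linked reads, Hspa8 by 1.10 and 0.00, Hsp90aa1 by 1.34 and 0.01, and Hsp90ab1 by 1.22 and -0.01. Hspa1b changed by 1.62 and 0.30 and Hspb1 by 1.80 and 0.47, so that with Hsph1 these 3 genes had the highest changes among libraries without Y-linked reads. Hsf1 did not share the pattern, with -0.76 and -0.78 (interaction adjusted p 0.995). Because the pairs cross, the interaction is the same number as the summed excess of replicates 1 and 2 over 3 and 4 in both genotypes. A genotype change that depends on Y-linked reads therefore cannot be told apart from a difference between the replicate pairs. Without the intensity trend in limma 0 of the 10 genes were called in this test, with adjusted p between 0.208 and 0.453 for the 9 genes. An unadjusted p under 0.05 was found in 9 of the 10, and in 1191 of all 11754 genes tested. With quantile normalization 6 remained, and Hspa1a, Hsp90aa1 and Hsp90ab1 had adjusted p of 0.311, 0.331 and 0.403. Hspb1 was not called without wild-type replicate 2, wild-type replicate 4 or mfn2-/- replicate 1 (adjusted p 0.0565, 0.0728 and 0.0988).

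**Figure D2:**
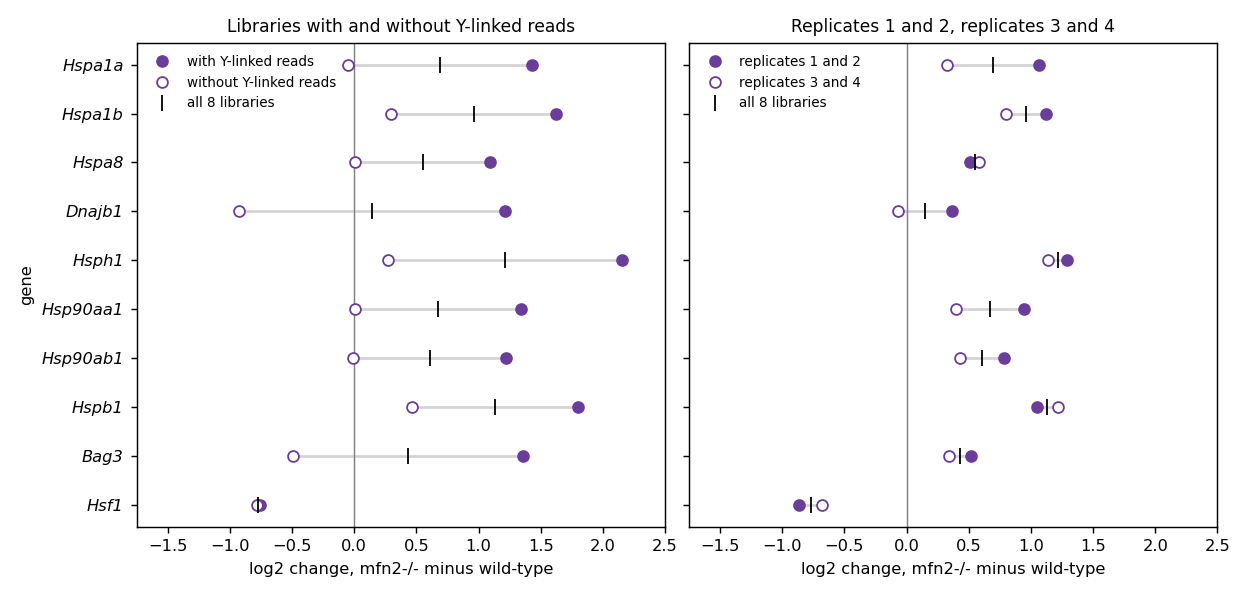
Log2 change of each chaperone gene, mfn2-/- minus wild-type, within libraries of 1 kind (2 libraries per genotype). The left panel splits libraries by Y-linked reads and the right panel by replicate number, and the black tick is the change over all 8 libraries. In the left panel 9 genes separate, with Dnajb1 at 1.21 and -0.92, while in the right panel Hsph1 stays at 1.29 and 1.14 and Hspb1 at 1.05 and 1.22.

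Ratios between chaperone genes within 1 library do not depend on how libraries were scaled. Hsph1 over Dnajb1 was 1.65 to 1.76 in the 4 wild-type libraries and 3.07 to 4.11 in the 4 mfn2-/- libraries. The genes of the HSP70 cycle therefore did not move in a fixed proportion. Hsph1 over Hspa8 was 0.389 to 0.494 in wild-type and 0.558 to 0.874 in mfn2-/- libraries, and Hspb1 over Bag3 was 0.850 to 1.09 against 1.31 to 2.02. None of these 3 ratios overlapped between the genotypes. Dnajb1 over Hspa8 (0.236 to 0.290 against 0.148 to 0.284) and Hsp90aa1 over Hsp90ab1 (0.891 to 0.986 against 0.846 to 1.25) did overlap. Of the 45 pairs among the 10 genes, 17 had ratios that did not overlap between genotypes, where 17.4% of all pairs of genes tested did not. Pairs share genes and are not independent. Hsph1 was in 6 of these 17 pairs, Hspa1b and Dnajb1 in 5 each, and Hsf1 in 0.

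**Figure D3:**
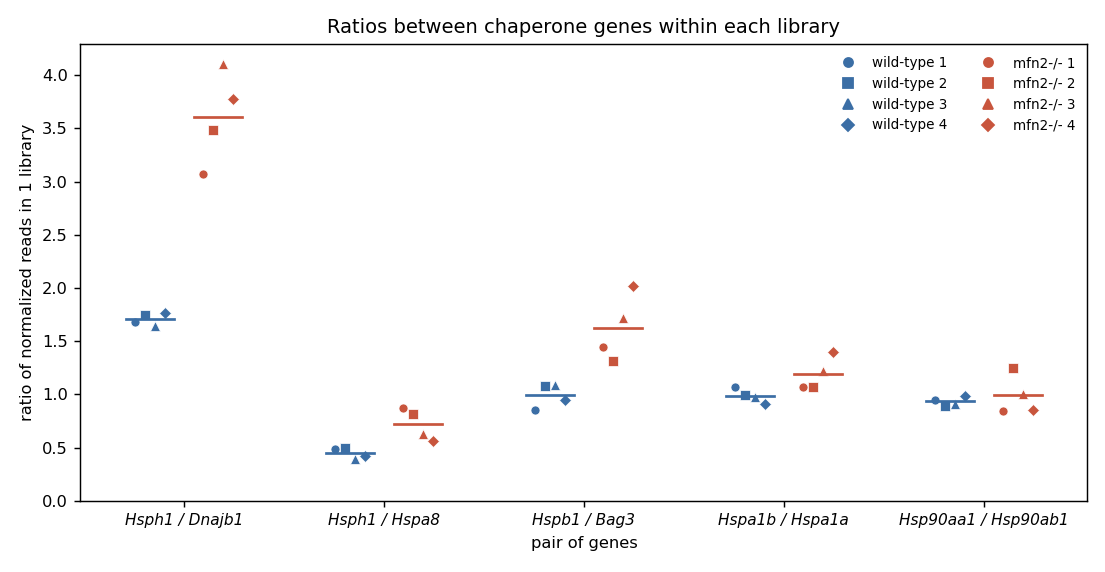
Ratio of normalized reads of pairs of chaperone genes within each library, wild-type in blue and mfn2-/- in red, with symbols for the replicate number and bars for the mean. Hsph1 over Dnajb1 stays between 1.65 and 1.76 in wild-type and between 3.07 and 4.11 in mfn2-/- libraries, while Hsp90aa1 over Hsp90ab1 overlaps.

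Other genes of the chaperone network were taken from lists by role, beside a list of immediate early genes. Of 99 genes tested on all these lists 13 were called higher and 1 lower in mfn2-/- ASCs. The count includes 18 immediate early genes, of which 3 were called higher. Of all genes tested 3.99% were called higher and 6.36% lower. The list of HSP90 cochaperones had 4 of 14 genes called, all higher, and a median log2 change of 0.37. Chordc1, a partner of HSP90 with zinc-binding CHORD domains, measured 240 to 364 normalized reads in wild-type and 492 to 614 in mfn2-/- libraries (log2 change 1.10, SE 0.22, limma adjusted p 0.00779). Unc45a, a myosin chaperone that binds HSP90, changed by 1.05 (adjusted p 0.0344), Ptges3, the cochaperone p23, by 0.92 (0.0207), and Stip1, which bridges HSP70 and HSP90, by 0.89 (0.0370). The Chordc1 call held with each library left out, but not by limma without the intensity trend (adjusted p 0.0559) or with replicate pairs averaged (0.101). Without wild-type replicate 3 the adjusted p of Unc45a, Ptges3 and Stip1 was 0.104, 0.0646 and 0.106, and their calls were also lost without mfn2-/- replicate 1 or 2. The Unc45a call was lost as well with the replicate number as a block (adjusted p 0.0530) and without wild-type replicate 4 and mfn2-/- replicate 3 or 4 (0.0915, 0.0647 and 0.0620), and the Stip1 call without wild-type replicate 2 or 4 and mfn2-/- replicate 3 (0.0583, 0.112 and 0.0846). Fkbp5, the most abundant gene of the list, changed by 0.44 (adjusted p 0.185).

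Among 8 relatives of HSP70 and HSP110, Hspa4l was called higher (0.97, limma adjusted p 0.0407) and Hspa4, the most abundant, changed by 0.33 (0.234). The Hspa4l call was lost without wild-type replicates 2, 3 or 4 and without mfn2-/- replicates 1, 2 or 3, with adjusted p of 0.0644 to 0.125. Of 9 J-domain cochaperones 0 were called by limma, and 1 had an unadjusted p under 0.05, as had 2918 of all 11754 genes tested. Dnaja1 and Dnaja4, the most abundant of them, changed by 0.12 and -0.07, and neither sign was stable over the alternatives. These had interactions of 1.19 (adjusted p 0.0435) and 2.10 (0.00452) of the kind seen in Dnajb1. Of the small heat shock proteins 5 of 9 could be tested and 0 were called, with 0 at an unadjusted p under 0.05. Cryab, the αB-crystallin that is abundant in muscle fibers, was at 188 to 314 normalized reads in wild-type and 156 to 289 in mfn2-/- libraries with a change of -0.06 whose sign turned under quantile normalization and with edgeR (0.014 and 0.053).

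No gene was called among 8 further nucleotide exchange and ubiquitin partners of HSP70 (St13 0.34, Bag6 0.14), for the heat shock factor gene Hsf2 (0.70) and the factor-binding Hsbp1 (-0.35) or among 12 subunits of the TRiC chaperonin and prefoldin (Tcp1 0.61, limma adjusted p 0.0734, and Cct5 0.26). At an unadjusted p under 0.05 these lists had 0, 0 and 2 genes, and all genes tested had 2918 of 11754. TRiC folds actin and tubulin in the cytosol. Of 5 other heat-inducible genes, Sqstm1, the autophagy receptor p62, was called higher (0.99, adjusted p 0.0287), and Serpinh1, the collagen chaperone HSP47, was called lower (-1.13, adjusted p 0.000750). Serpinh1 gave 4598 to 5178 normalized reads in wild-type and 2004 to 2444 in mfn2-/- libraries, and its direction was that of the fibroadipogenic markers, whose part in it was not tested. The Sqstm1 call was lost without wild-type replicates 3 or 4 and without mfn2-/- replicates 1, 2 or 3 (adjusted p 0.0541 to 0.101).

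Some chaperones of other compartments were called higher as well, where 3.99% of all genes tested were. In the endoplasmic reticulum this held for 2 of 12 genes, and 0 were called lower. Hspa5, the luminal HSP70 BiP, gave 20832, 22203, 12491 and 13354 normalized reads in wild-type and 30541, 32910, 31915 and 31143 in mfn2-/- replicates 1 to 4, a log2 change of 0.92 (limma adjusted p 0.0371). Its mfn2-/- libraries were level, unlike those of the cytosolic genes. Hsp90b1, the luminal HSP90, changed by 0.66 (adjusted p 0.0356). In mitochondria 2 of 6 were called, Hspe1, the HSP10 lid of the chaperonin, by 1.07 (0.0199) and Hspa9, the mitochondrial HSP70 mortalin, by 0.83 (0.0139), while Hspd1, the chaperonin HSP60, changed by 0.75 (0.0586). Hspa9 changed by 0.84 with and 0.82 without Y-linked reads. Hspd1 changed by 1.35 and 0.15 (limma interaction adjusted p 0.0165) and Hspe1 by 1.52 and 0.62 (0.398). The calls of Hspa5 and Hsp90b1 were lost without wild-type replicate 3 (adjusted p 0.155 and 0.107), as were those of Hspe1 and Hspa9 (0.0662 and 0.0567). Hspa5 also lost it without wild-type replicate 4 or mfn2-/- replicates 1, 2 or 3, Hspe1 without wild-type replicate 4 or mfn2-/- replicate 2, and Hsp90b1 without any library but mfn2-/- replicate 3.

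**Figure D4:**
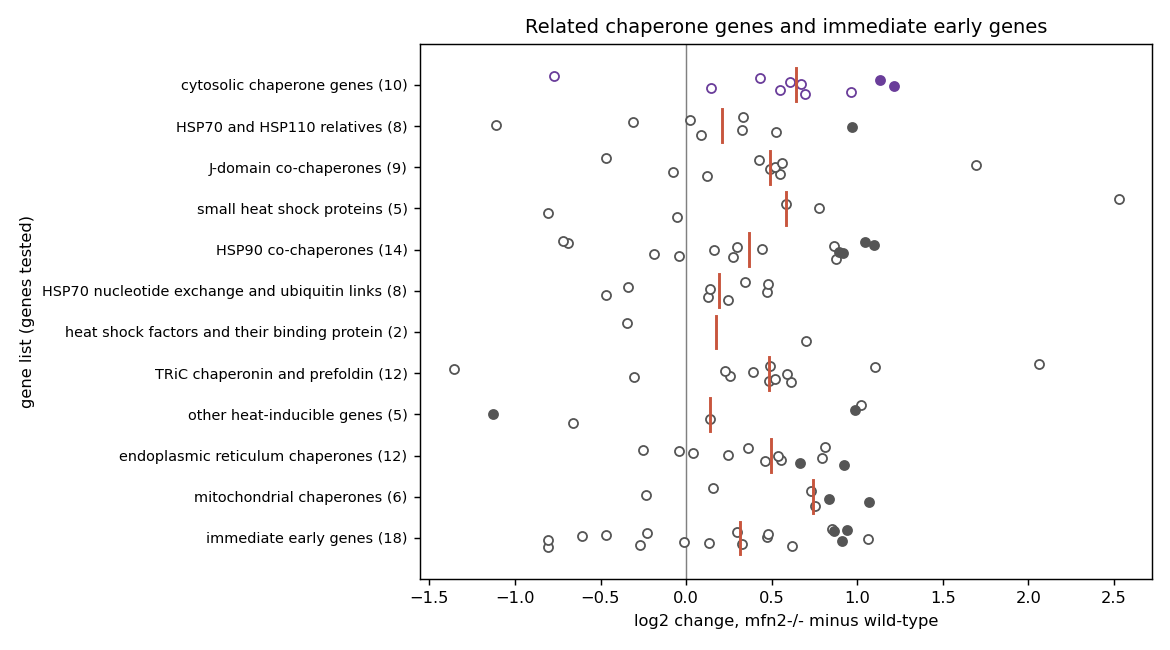
Log2 change, mfn2-/- minus wild-type, of the 10 cytosolic chaperone genes and of the genes tested in each related list. Filled circles are genes called by limma, open circles genes not called, and red bars the median of each list. The medians run from 0.14 for other heat-inducible genes to 0.74 for mitochondrial chaperones, and Serpinh1 at -1.13 is the filled circle on the left.

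The immediate early genes, which cells transcribe within minutes of a stimulus, were listed because they share rapid induction with the heat shock genes. Of 18 genes tested 3 were called higher, where 3.99% of all genes tested were. These were Klf6 by 0.94 (limma adjusted p 0.00191), Egr2 by 0.91 (0.0274) and Klf4 by 0.87 (0.0209), and the median change of the list was 0.31. The change was positive in only 11 of the 18 genes and negative in the rest, of which 0 were called lower. Egr1, the most abundant, had 27523, 29004, 20920 and 22343 normalized reads in wild-type and 45072, 39161, 16819 and 12151 in mfn2-/- replicates 1 to 4. Its values therefore followed the order seen in Dnajb1, with a log2 change of -0.01 over 8 libraries, whose sign turned under equal totals (0.035) and with the count models, and a difference of 1.94 between libraries with and without Y-linked reads (adjusted p 0.00163). In that interaction test 11 of the 18 genes were called, all in the direction of the chaperone genes. Of all genes tested 1.47% were called in it, 1.21% in that direction. Jun, the other most abundant gene, changed by -0.27 (adjusted p 0.521). The calls of Egr2 and Klf4 were lost without wild-type replicate 3 or 4 or mfn2-/- replicate 1 (adjusted p 0.0547 to 0.0876), and that of Egr2 also without mfn2-/- replicate 2 (0.0841). The Klf6 call held with each library left out, but not by limma without the intensity trend (adjusted p 0.0552) or with replicate pairs averaged (0.128).

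The genes whose pattern was most like that of the inducible HSP70 machine were found by the Pearson correlation, over the 8 libraries, with the mean standardized log2 level of Hspa1a, Hspa1b, Dnajb1 and Hsph1, among the 7636 genes whose mean was 50 or more. These were Fam132b (r = 0.992), Hsp90ab1 (0.988), Ppp1r15a (0.982), Cxcl1 (0.977), H2-Q4 (0.976), Elf2 (0.974), Mcl1 (0.973) and Cebpd (0.971). Ppp1r15a, also known as GADD34, restarts translation after stress, Cxcl1 is a chemokine, Mcl1 a survival factor of the BCL2 family, Elf2 and Cebpd are transcription factors, and H2-Q4 belongs to the MHC class I genes, close copies whose separate values are uncertain. Fam132b, which encodes the secreted protein erythroferrone, gave 2395, 2721, 1466 and 1368 normalized reads in wild-type and 7614, 7389, 2267 and 2756 in mfn2-/- replicates 1 to 4. The same 2 libraries of each genotype were high as in the chaperone genes. Among the remaining chaperone genes, Hsp90aa1 was 9th in this order, Hspa8 13th, Bag3 21st and Hspb1 65th, while Hsf1 had r = -0.36. These correlations share the libraries and their scaling and are a description.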

How the data were processed

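Sorted ASCs gave total RNA for stranded low-input libraries, 4 of wild-type and 4 of mfn2-/- cells, which the authors sequenced. Groups and replicate numbers follow the titles. The submitters' processing notes name Trim Galore, HISAT2, featureCounts, DESeq2 and the build mm9, and annotation, strand setting and multi-mapping are not given in the sources used here. The deposited table lists 18877 symbols, with the signal of each gene as linear normalized read counts. In each library 100% of values were whole multiples of 1 step (tolerance 0.01 reads), so whole reads were recovered by division by that step. The libraries held 1880464 to 7508215 reads, each worth 0.534 to 2.27 normalized reads. The table has no coordinates, and GENCODE M21 (GRCm38) gave positions and lengths. Promoter windows are from RefSeq (GRCm38.p6).

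Genes with a mean of at least 10 (11754) were tested on log2(value + 1) by limma 3.58.1 (R 4.3.3), with intensity trend and without covariate, two-sided, at a Benjamini-Hochberg adjusted p of 0.05. These differences understate the change of weakly expressed genes. Presence of Y-linked reads was added as an interaction in a second fit. Single genes were also compared by exact permutation over the 70 arrangements, which treats the libraries as independent. Groups that do not overlap always give the smallest p of that test. Alternatives used pseudocounts of 0.1 and 10, no filter, a mean of at least 50, equal totals, quantile normalization, the replicate block, a Y-linked term, weights per library, limma without the trend, each library left out, and edgeR 4.0.16 and DESeq2 1.42.0 on the recovered reads. A term for the replicate pair and libraries averaged by pair were chosen after seeing the data. Replicates of a group differed beyond sampling noise (chi-square per degree of freedom 12.0 to 87.4). In wild-type this value was 19.2 between replicates 1 and 2, 14.4 between 3 and 4, and 35.3 to 45.8 across these pairs. In mfn2-/- it was 12.0 between replicates 1 and 2, 42.4 between 3 and 4, and 39.4 to 87.4 across these pairs. The genes described, the related lists and the naming rule (every gene described, the called and the 2 most abundant genes of each related list, at most 4 called, the 8 genes most correlated with the inducible HSP70 genes, and Mfn2) were chosen with earlier results of these data known. Tables and figures were made in Python 3.11.15.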

Additional observations from a re-analysis of the deposited data

Results flagged for a closer look

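The genotype change differed between libraries with and without Y-linked reads, by the limma interaction test, for 9 of the chaperone genes: by 1.48 for Hspa1a, 1.33 for Hspa1b, 1.09 for Hspa8, 2.14 for Dnajb1, 1.88 for Hsph1, 1.33 for Hsp90aa1, 1.23 for Hsp90ab1, 1.33 for Hspb1 and 1.85 for Bag3 (log2, with minus without). The same test passed for the related genes Dnaja1 (1.19), Dnaja4 (2.10), Sqstm1 (1.10), Hspa5 (0.74), Hspd1 (1.21), Egr2 (1.25) and Egr1 (1.94). Among genes chosen for their likeness to the HSP70 pattern, which fixes this outcome, it was 2.43 for Fam132b, 1.25 for Ppp1r15a, 2.14 for Cxcl1, 2.49 for H2-Q4, 1.55 for Elf2, 1.67 for Mcl1 and 1.55 for Cebpd. In every one of these genes the value equals the summed excess of replicates 1 and 2 over replicates 3 and 4 in both genotypes. A genotype change that depends on Y-linked reads therefore cannot be told apart from a difference between the replicate pairs.

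Single libraries stood apart from the other 3 of their group by Dixon's test for Hspa4 in wild-type replicate 2 (1592 normalized reads, the next at 1392), Chordc1 in wild-type replicate 1 (364, the next at 245) and in mfn2-/- replicate 3 (492, the next at 598), and Unc45a in mfn2-/- replicate 4 (680, the next at 445). These are 4 of 94 groups tested, and chance gives about 5. No group of a cytosolic chaperone gene was among them.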

How the results depend on the processing

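Over 24 alternatives for 10 chaperone genes, 192 of the log2 changes kept direction and side of the threshold, 13 lost a call, 32 gained one and 3 turned sign, and for the other named genes and these together 907, 104, 86 and 31 did so. The count of chaperone genes called was 1 with a pseudocount of 0.1 (8.48% of all genes called), 5 with quantile normalization (11%), 9 with library weights (25.8%), 6 with edgeR without a filter (7.96%), 5 with DESeq2 (14.8%) and 7 with a term for the replicate pair (12.3%). It was 0 by limma without the trend and with libraries averaged by pair, and 0 to 3 with single libraries left out. Without the trend 3 of the 10 genes had an unadjusted p under 0.05, against 2544 of all 11754 genes tested. With averaged pairs 1 had one, against 2111 of 11754. Among the fits with a library left out, the 0 came without wild-type replicate 3 or 4. In each of these 3 chaperone genes had an unadjusted p under 0.05, as had 2438 of 11684 and 2461 of 11674 genes tested.

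Genes called over the whole table numbered 633 (113 higher) without the trend, 3037 (1398 higher, 1639 lower) with library weights, and 553 (109 higher, 444 lower) with libraries averaged by pair. With single libraries left out the count was 671 to 1331 (235 to 489 higher, 436 to 842 lower), lowest without wild-type replicate 3. Calls that were higher made up 38.5% in the main test and 17.9% and 19.7% without the trend and with averaged pairs. The related lists had 1 call without the trend, 40 with library weights, 0 with averaged pairs and 3 to 14 with single libraries left out. With averaged pairs 18 of the 99 listed genes had an unadjusted p under 0.05, near the share over all genes tested (2111 of 11754). The interaction called 0 chaperone genes and 0 genes in all without the trend (9 and 1191 at an unadjusted p under 0.05), 109 genes in all with no filter, and 8 to 9 chaperone genes and 31 to 1347 genes with single libraries left out, the highest without mfn2-/- replicate 3 and the lowest without mfn2-/- replicate 1.

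Signs turned in 6 genes that were not called in the test of the report. Dnajb1 was -0.01 without wild-type replicate 4, and -0.10 and -0.03 without mfn2-/- replicates 1 and 2. Dnaja1 was -0.00 without wild-type replicate 3 and -0.020 without mfn2-/- replicate 1, and Hsbp1 0.18 without mfn2-/- replicate 1. Dnaja4 was 0.62 with library weights, 0.09, 0.13 and 0.24 without wild-type replicate 1, mfn2-/- replicate 3 and mfn2-/- replicate 4, 0.20, 0.15 and 0.19 with edgeR, edgeR with filterByExpr and edgeR without a filter, and 0.092 with DESeq2. Cryab was 0.014 with quantile normalization, 0.22 with library weights, 0.08 and 0.12 without wild-type replicate 1 and mfn2-/- replicate 4, and 0.053, 0.012 and 0.050 in the edgeR fits. Egr1 was 0.035 with equal totals, 0.62 with library weights, 0.04 and 0.06 without wild-type replicates 1 and 2, 0.17 and 0.33 without mfn2-/- replicates 3 and 4, 0.29, 0.24 and 0.27 in the edgeR fits and 0.18 with DESeq2. With single libraries left out the ranges were -0.10 to 0.36 for Dnajb1, -0.020 to 0.30 for Dnaja1, -0.35 to 0.24 for Dnaja4, -0.17 to 0.12 for Cryab, -1.02 to 0.18 for Hsbp1 and -0.31 to 0.33 for Egr1. The cause was not tested.

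Over all genes with a mean of at least 10, same-numbered libraries of the groups did not deviate together (correlations -0.1111 to 0.0383). Such a correlation cannot decide whether the numbers pair libraries for single genes. In 9 of the 10 chaperone genes replicates 1 and 2 exceeded replicates 3 and 4 in both genotypes. With the replicate block 1043 genes (434 higher, 609 lower) and 3 chaperone genes, Hspa1b, Hsph1 and Hspb1, were called. Of the other named genes, the block ended the call of Unc45a (adjusted p 0.0530) and added calls of Hspd1 (0.0217), Fam132b (0.00446), Cxcl1 (0.0161), H2-Q4 (0.00635) and Elf2 (0.0406). Depth limits Hsf1, at 20.2 to 93.6 normalized reads, more than the other 9 genes, and without molecular identifiers amplified copies cannot be told from separate molecules.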
